A study of Homo sapiens with 9 samples.

Results

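Aminoacyl-tRNA synthetases join each amino acid to its transfer RNA. Their mRNAs were measured by RNA sequencing in HK-2 cells, an established human proximal tubule line that carries papillomavirus type 16 transforming genes. The genes described here are the protein-coding rows of the deposited table whose symbol follows the synthetase naming pattern, such as TARS1, EPRS1 or FARSA. That rule found 38 of the 62703 genes listed. Of these, 17 carry the suffix 2 and encode mitochondrial enzymes, and 21 encode cytosolic enzymes. GARS1 and KARS1, counted as cytosolic, also give rise to mitochondrial forms. All 21 cytosolic and 16 of the 17 mitochondrial genes passed the filter on low counts. SARS2, with 0 to 6 counts in a library, did not.

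The series asks about MYDGF, a secreted growth factor, in the kidney tubule. In the MYDGF group, cells received an adenovirus that carries MYDGF (vector GV314) together with 5 µg/ml of aristolochic acid for 48 h. In the aristolochic acid group, cells of wild-type genotype received 5 µg/ml of this plant toxin for 48 h, and the untreated group, also of wild-type genotype, received none. The labels number the libraries 1, 3 and 4 in the MYDGF group, 1, 4 and 6 in the aristolochic acid group and 1, 2 and 3 in the untreated group. The protocols give 12 h of serum starvation and medium with 5% serum for every library. They name no control virus for the other groups, so MYDGF itself and infection with the virus cannot be told apart. All 9 libraries are labelled HK-2, although the treatment text of 4 of them (MYDGF 3 and 4, untreated 2 and 3) reads HK-3 or HK-4. The labels do not say that libraries came from separate cultures, so every p-value here reflects the spread between libraries, and that spread may be technical.

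Cytosolic synthetases charge tRNAs for translation by cytosolic ribosomes, and several of them sit in a multisynthetase complex held together by the scaffold proteins AIMP1, AIMP2 and EEF1E1. Mitochondrial synthetases are encoded in the nucleus, are imported, and charge the tRNAs made from mitochondrial DNA. Proximal tubule cells depend on mitochondrial respiration, and loss of the mitochondrial seryl enzyme SARS2 is known to cause an inherited kidney failure syndrome. When tRNAs lack their amino acid, the kinase GCN2, encoded by EIF2AK4, phosphorylates the initiation factor eIF2-alpha, which raises translation of the transcription factor ATF4. ATF4 binds C/EBP-ATF response elements (CARE), and many cytosolic synthetase genes are known ATF4 targets.

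The CARE letters TGATGNAA were searched on both strands in RefSeq promoter windows (GRCh38.p14), which run 250 bases before to 50 bases after each annotated start. Windows were present for 30 of the 38 genes, and AARS2, LARS1, TARS3, VARS1, VARS2 and YARS1 were among those with none. The letters were found in 7 of 16 cytosolic genes and in 1 of 14 mitochondrial genes, beside 4.46% of all 27305 genes with a window. Stretches of 30 bases around each match are shown because most of the cytosolic matches hold the same letters. All are written 5′ to 3′ on the strand of the gene, with the match in capitals.
TARS1 (chr5:33440956-33440985, plus strand): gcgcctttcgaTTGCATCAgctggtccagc
CARS1 (chr11:3057407-3057436, minus strand): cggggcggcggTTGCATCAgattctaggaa
GARS1 (chr7:30594834-30594863, plus strand): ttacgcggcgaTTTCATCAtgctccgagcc
AARS1 (chr16:70289675-70289704, minus strand): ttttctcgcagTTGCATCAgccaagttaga
MARS1 (chr12:57488053-57488082, plus strand): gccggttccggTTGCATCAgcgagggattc
IARS1 (chr9:92293692-92293721, minus strand): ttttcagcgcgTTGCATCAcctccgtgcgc
NARS1 (chr18:57621804-57621833, minus strand): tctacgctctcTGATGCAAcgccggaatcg
YARS2 (chr12:32756076-32756105, minus strand): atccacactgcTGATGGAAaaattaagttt

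In TARS1, CARS1, AARS1, MARS1 and IARS1 the match reads TTGCATCA, the same 8 letters in each, and the NARS1 match is its reverse complement. The matches of CARS1, MARS1 and TARS1 begin within 4 bases of the annotated start, those of IARS1, NARS1 and GARS1 within 33 bases, and those of AARS1 and YARS2 lie 187 and 197 bases before it. An interferon-response motif, GAAA followed by any 2 bases and GAAA, was searched in the same way because tryptophanyl-tRNA synthetase is a known interferon-induced gene. It was found in WARS1 and EARS2 and in 4.38% of all genes. The WARS1 stretch is shown with the match in capitals.
WARS1 (chr14:100375383-100375412, minus strand): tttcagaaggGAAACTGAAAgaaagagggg

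Library totals, in units of 1e+06 counts, were 12.9 to 14.3 in the MYDGF group, 10.9 to 12.9 with aristolochic acid alone and 12 to 13.4 in untreated cells. Levels below are CPM, counts scaled to a library of 1e+06 counts after TMM normalization, and they were not compared between genes because they carry no correction for gene length. MYDGF mRNA had 663, 510 and 599 CPM in the MYDGF group, 105, 74.2 and 90.4 CPM with aristolochic acid alone and 125, 131 and 123 CPM in untreated cells, a log2 fold change of 2.72 for MYDGF against aristolochic acid alone (adjusted p = 2.74e-05). The epithelial keratins KRT8, KRT18 and KRT7 averaged 526 to 730 CPM in the MYDGF group, 592 to 953 CPM with aristolochic acid alone and 372 to 580 CPM in untreated cells. The kidney and proximal tubule markers PAX8, CDH2 and LRP2 stayed below 1 CPM on average in each group. CUBN, an endocytic receptor of the proximal tubule, averaged 4.43 CPM in the MYDGF group, 6.39 CPM with aristolochic acid alone and 2.17 CPM in untreated cells. The water channel AQP1 averaged 2.49 CPM in the MYDGF group, 3.16 CPM with aristolochic acid alone and 1.24 CPM in untreated cells. All 5 tested markers of this list, CUBN and AQP1 included, rose with aristolochic acid against untreated cells (adjusted p = 0.000591 for CUBN and 0.0279 for AQP1). The 8 epithelial and kidney markers summed to 1950 to 2020 CPM in the MYDGF group, 2230 to 2250 CPM with aristolochic acid alone and 1520 to 1540 CPM in untreated cells. Lists of 4 endothelial, leukocyte, fibroblast and distal nephron or podocyte markers each summed to at most 20.1 CPM in any library, with CD3E and UMOD at 0. Endothelial markers summed to 3.59 to 4.14 CPM in the MYDGF group, 6.56 to 12.4 CPM with aristolochic acid alone and 0.984 to 1.26 CPM in untreated cells, and PECAM1 rose 13.4-fold with the toxin (adjusted p = 5.32e-05). Distal nephron or podocyte markers, nearly all NPHS1, summed to 2.47 to 3.37 CPM in the MYDGF group, 6.32 to 7.96 CPM with aristolochic acid alone and 2.6 to 3.41 CPM in untreated cells. Fibroblast or mesangial markers summed to 18.1 to 20.1 CPM in the MYDGF group, 9.84 to 16.6 CPM with aristolochic acid alone and 11.6 to 13.5 CPM in untreated cells. Leukocyte markers summed to 1.17 to 2.53 CPM in the MYDGF group, 1.38 to 2.01 CPM with aristolochic acid alone and 1.98 to 3.1 CPM in untreated cells. Their part in the results was not tested.

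Aristolochic acid alone against untreated cells asks how synthetase mRNAs responded to the toxin. Cytosolic synthetase mRNAs were mostly higher with aristolochic acid: 14 of 21 rose, led by the threonyl (TARS1), cysteinyl (CARS1), tyrosyl (YARS1) and seryl (SARS1) enzymes, and the glutaminyl enzyme (QARS1) alone fell. Mitochondrial synthetase mRNAs moved in both directions, with 5 of 16 higher and 5 lower. The median log2 fold change was 0.49 over the cytosolic genes, -0.09 over the mitochondrial genes and -0.01 over all 18267 genes tested. By edgeR's quasi-likelihood test, 59% of all genes tested passed an adjusted p of 0.05 in this comparison, 29.7% of them higher and 29.3% lower as shares of all genes. The cytosolic share that rose was 66.7%. Of the mitochondrial genes 31.2% rose and 31.2% fell, near the shares over all genes. In bulk RNA, fewer cells carrying an mRNA and less of it per cell cannot be told apart. Leaving out untreated 2 brought the cytosolic count that fell to 2, with RARS1 added.

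**Figure D1:**
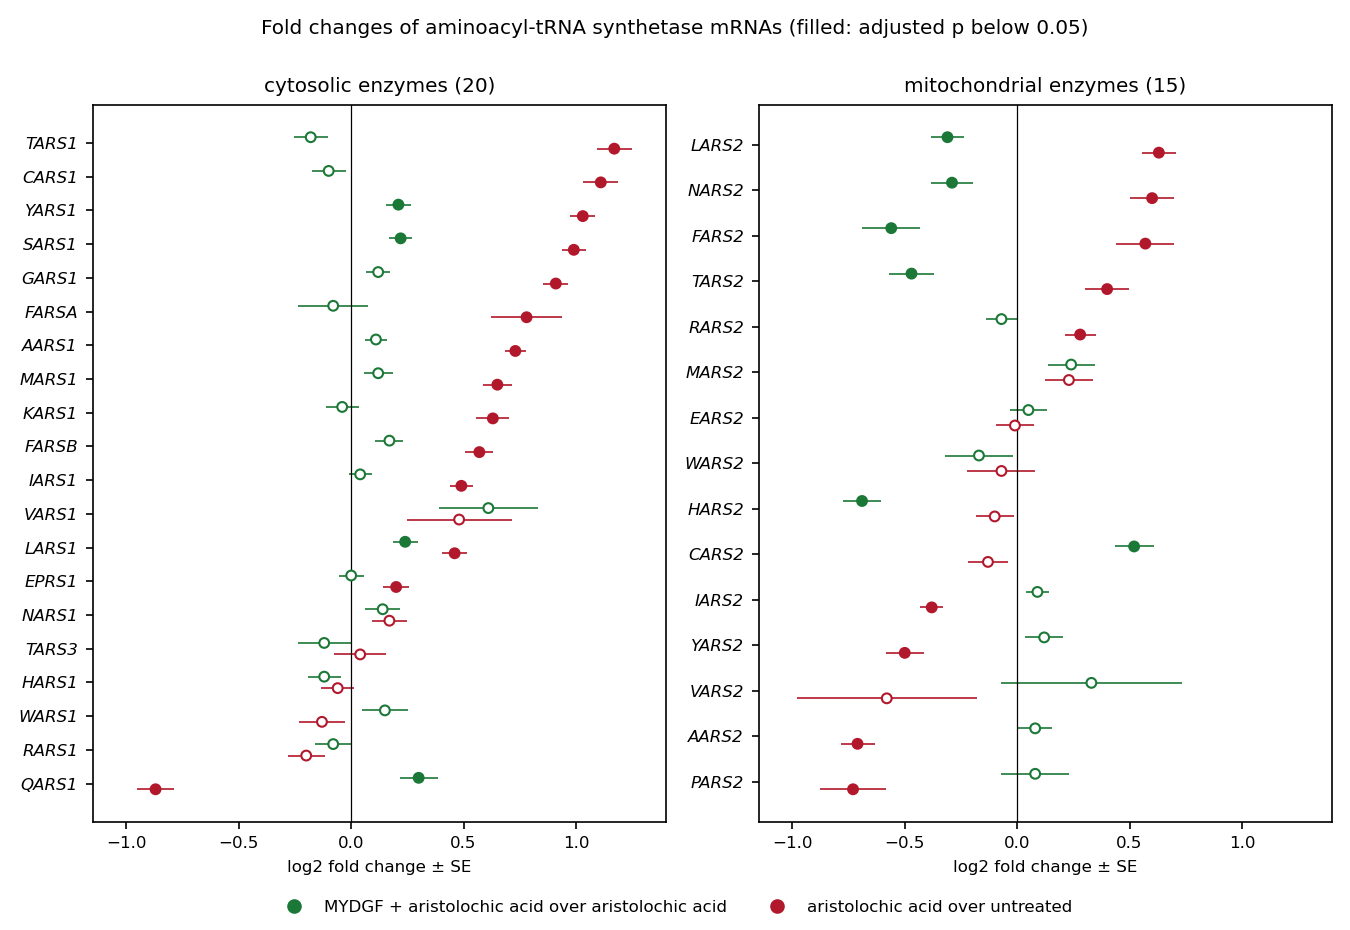
Log2 fold change with its standard error for 20 cytosolic (left) and 15 mitochondrial synthetases (right), sorted by the change with aristolochic acid over untreated (red), beside MYDGF with aristolochic acid over aristolochic acid (green). Filled points passed an adjusted p of 0.05. Most cytosolic red points lie right of 0, up to 1.17 for TARS1, whereas the mitochondrial red points run from -0.73 to 0.63.

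The largest rises were among cytosolic enzymes outside the multisynthetase complex. TARS1 (chr5:33440696-33468091) had 747, 746 and 803 CPM in the MYDGF group, 783, 973 and 852 CPM with aristolochic acid alone and 388, 393 and 375 CPM in untreated cells. Every treated library was far above every untreated one, and the MYDGF and aristolochic acid groups overlapped. TARS1 rose 2.26-fold with aristolochic acid (log2 1.17 ± 0.08 SE, adjusted p = 6.3e-06). CARS1 (chr11:3000922-3057613) had 87.1, 88.6 and 93.6 CPM in the MYDGF group, 90.9, 105 and 91.8 CPM with aristolochic acid alone and 42.6, 44 and 46.6 CPM in untreated cells. It showed the pattern of TARS1 and rose 2.16-fold (log2 1.11 ± 0.08 SE, adjusted p = 8.36e-06). YARS1 (chr1:32775237-32818031) had 246, 258 and 255 CPM in the MYDGF group, 208, 225 and 221 CPM with aristolochic acid alone and 107, 111 and 104 CPM in untreated cells. Here the groups did not overlap, and MYDGF libraries stood highest. YARS1 rose 2.04-fold with aristolochic acid (log2 1.03 ± 0.06 SE, adjusted p = 3.83e-06).

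Seryl-, glycyl- and alanyl-tRNA synthetase were close behind these 3. SARS1 (chr1:109213918-109238182) had 281, 294 and 287 CPM in the MYDGF group, 255, 249 and 236 CPM with aristolochic acid alone and 125, 125 and 121 CPM in untreated cells. Its groups did not overlap, and it rose 1.99-fold with aristolochic acid (adjusted p = 3.83e-06). GARS1, which serves both compartments, averaged 477 ± 15.1 CPM in the MYDGF group, 440 ± 24.1 CPM with aristolochic acid alone and 233 ± 3.79 CPM in untreated cells (SD, n = 3 each), a 1.88-fold rise with the toxin. AARS1, whose enzyme can also clear misacylated tRNA, averaged 525 ± 9.6 CPM in the MYDGF group, 487 ± 15.7 CPM with aristolochic acid alone and 294 ± 7.4 CPM in untreated cells, a 1.66-fold rise with the toxin. For both genes every treated library lay above every untreated one. FARSA and FARSB encode the subunits of the phenylalanyl enzyme, and both rose, by 0.78 ± 0.16 and 0.57 ± 0.06 on the log2 scale.

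The other 5 enzymes outside the complex were not called with aristolochic acid against untreated cells. NARS1 (asparagine) had a log2 difference of 0.17 ± 0.08 SE (adjusted p = 0.0823) although its groups did not overlap, and it passed the threshold with DESeq2 size factors and without aristolochic acid 4 or 6. TARS3, a paralog of TARS1, had 0.04 ± 0.12, HARS1 (histidine) -0.06 ± 0.07 and VARS1 (valine) 0.48 ± 0.23. VARS1 rested on 19 to 55 counts in a library. WARS1, the interferon-induced tryptophanyl enzyme, had 126, 114 and 109 CPM in the MYDGF group, 109, 96.3 and 110 CPM with aristolochic acid alone and 100, 115 and 129 CPM in untreated cells. These groups overlapped throughout (log2 -0.13 ± 0.10 SE with aristolochic acid, adjusted p = 0.294). In 16 tested interferon-stimulated genes, 12 fell and 1 rose with aristolochic acid, beside 29.3% of all genes lower and 29.7% higher. Their median log2 fold change was -1.21, and the largest changes were falls of 3.41 in IFI35, 3.09 in BST2 and 2.76 in IFIT1 on the log2 scale.

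Within the multisynthetase complex, 6 of 8 enzymes rose with aristolochic acid and QARS1 fell, beside 29.7% of all genes higher and 29.3% lower. The median log2 fold change was 0.36 over the 8 complex enzymes and 0.73 over the 13 others, of which 8 rose and 5 were not called. The lowest log2 fold change of those 13 was -0.13, that of WARS1. MARS1 (methionine), KARS1 (lysine), IARS1 (isoleucine) and LARS1 (leucine, also a leucine sensor for mTORC1) rose by 0.65, 0.63, 0.49 and 0.46 on the log2 scale. The bifunctional EPRS1 (glutamate and proline) rose by 0.20 ± 0.06, and its call was lost without untreated 1 (adjusted p = 0.0655). RARS1 (arginine) was not called, at -0.20 ± 0.08 (adjusted p = 0.0651), and was called lower without untreated 2 (adjusted p = 0.0342).

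QARS1 (chr3:49095932-49105130) was the only cytosolic enzyme called lower with aristolochic acid, where 4 of 21 cytosolic log2 fold changes were negative. It had 90.2, 86.4 and 82.8 CPM in the MYDGF group, 70, 66.2 and 74.2 CPM with aristolochic acid alone and 143, 121 and 121 CPM in untreated cells. All 3 groups stood apart, with untreated cells highest and aristolochic acid alone lowest. QARS1 with aristolochic acid was 0.547 times its untreated level (log2 -0.87 ± 0.08 SE, adjusted p = 3.57e-05). The 3 scaffolds of the complex rose with aristolochic acid, AIMP1 by 0.32 ± 0.08, AIMP2 by 0.26 ± 0.07 and EEF1E1 by 0.42 ± 0.08 on the log2 scale. AIMP1 averaged 67.6 ± 4.36 CPM in the MYDGF group, 71 ± 0.88 CPM with aristolochic acid alone and 56.7 ± 4.77 CPM in untreated cells.

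**Figure D2:**
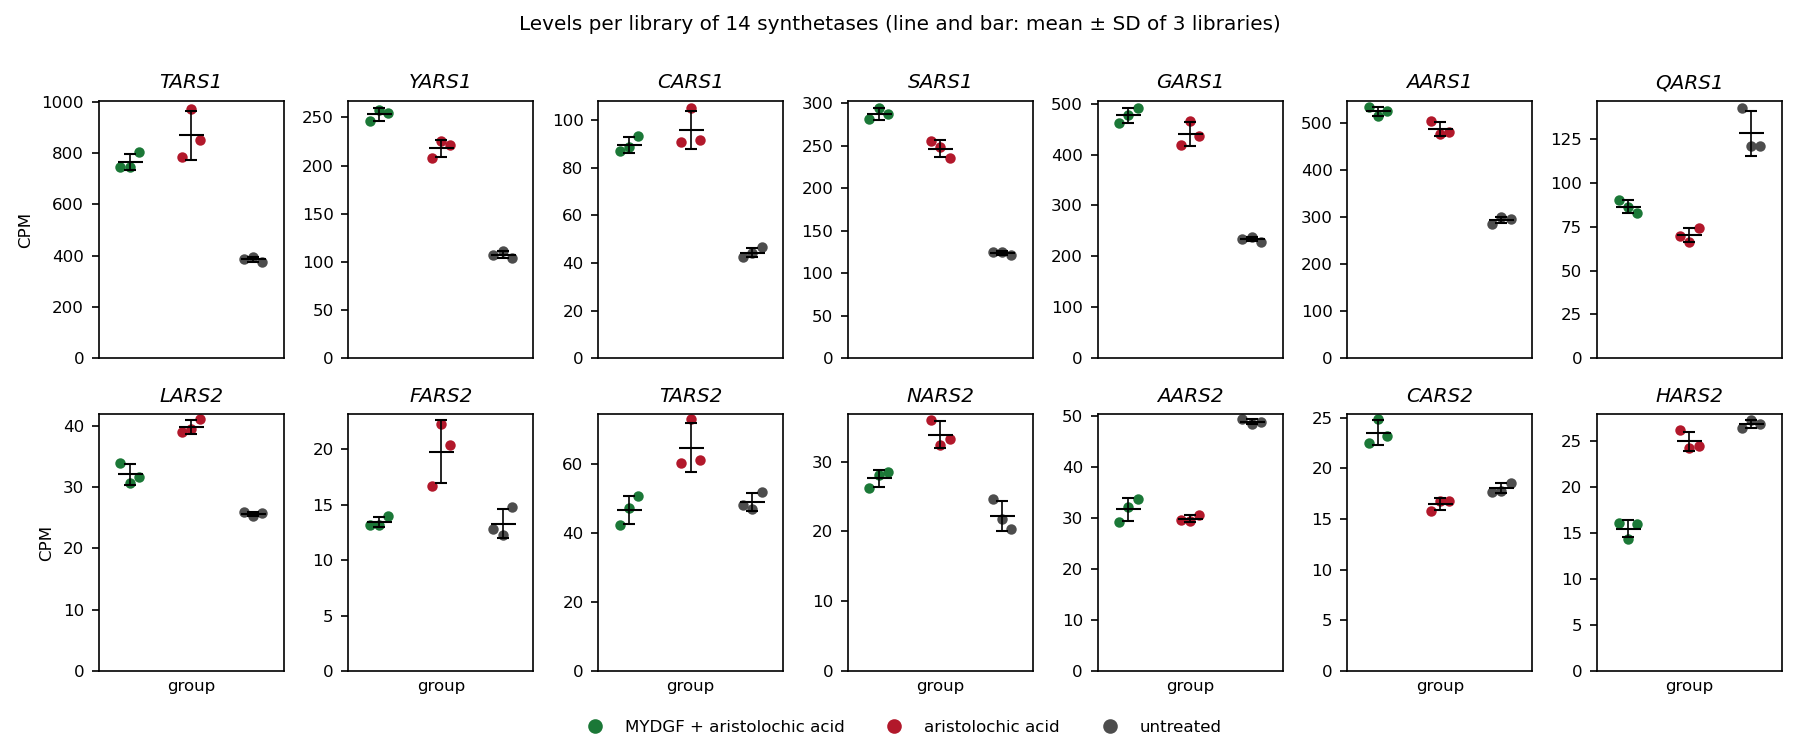
CPM of 14 synthetases in each of the 9 libraries, 7 cytosolic above and 7 mitochondrial below, with MYDGF and aristolochic acid left (green), aristolochic acid alone in the middle (red) and untreated right (grey), and mean with SD over 3 libraries. TARS1, YARS1, CARS1, SARS1, GARS1 and AARS1 are higher in every treated than in every untreated library, QARS1 and AARS2 are lower, and HARS2 is lower in the MYDGF libraries, 14.4 to 16.1 CPM.

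Mitochondrial synthetases were divided between rises (31.2%) and falls (31.2%) with aristolochic acid. These shares were near those of all genes tested, 29.7% higher and 29.3% lower. The leucyl (LARS2), asparaginyl (NARS2), phenylalanyl (FARS2), threonyl (TARS2) and arginyl (RARS2) enzymes rose, by 0.63, 0.60, 0.57, 0.40 and 0.28 on the log2 scale. LARS2 (chr3:45388561-45554726) had 34, 30.6 and 31.6 CPM in the MYDGF group, 39, 39.4 and 41.1 CPM with aristolochic acid alone and 25.9, 25.3 and 25.8 CPM in untreated cells. The groups did not overlap, aristolochic acid alone was highest, and the rise over untreated cells was 1.55-fold (adjusted p = 9.92e-05). FARS2 (chr6:5261044-5829192) had 13.2, 13.2 and 14 CPM in the MYDGF group, 16.7, 22.3 and 20.4 CPM with aristolochic acid alone and 12.8, 12.3 and 14.8 CPM in untreated cells. MYDGF and untreated libraries overlapped, and the aristolochic acid libraries were above both, 1.49-fold over untreated (adjusted p = 0.00404). TARS2 (chr1:150487414-150507602) had 42.3, 47.1 and 50.6 CPM in the MYDGF group, 60.2, 72.9 and 61.1 CPM with aristolochic acid alone and 48.2, 47 and 51.8 CPM in untreated cells. As with FARS2, MYDGF and untreated libraries overlapped and the aristolochic acid libraries were above both.

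The prolyl (PARS2), alanyl (AARS2), tyrosyl (YARS2) and isoleucyl (IARS2) enzymes were among the mitochondrial enzymes that fell with aristolochic acid, to 0.601, 0.613, 0.708 and 0.768 times the untreated level. AARS2 (chr6:44298731-44313347) had 29.2, 32.2 and 33.6 CPM in the MYDGF group, 29.6, 29.4 and 30.6 CPM with aristolochic acid alone and 49.3, 48.3 and 48.8 CPM in untreated cells. Both treated groups overlapped each other and lay below every untreated library (log2 -0.71 ± 0.08 SE, adjusted p = 6.12e-05). IARS2 had 233 to 245 CPM in the MYDGF group, 220 to 235 CPM with aristolochic acid alone and 290 to 300 CPM in untreated cells. YARS2 (chr12:32727490-32755897) had 18.3, 19.2 and 18.9 CPM in the MYDGF group, 17.5, 17.8 and 16.4 CPM with aristolochic acid alone and 25.4, 24.1 and 23.5 CPM in untreated cells. In both genes every treated library lay below every untreated one.

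CARS2, EARS2, HARS2, MARS2, VARS2 and WARS2, for cysteine, glutamate, histidine, methionine, valine and tryptophan, were not called with aristolochic acid against untreated cells. Their log2 differences ran from -0.58 for VARS2, with an SE of 0.40, to 0.23 for MARS2, with an SE of 0.11. MARS2 was called higher without aristolochic acid 6 and with DESeq2 size factors (adjusted p = 0.0415 and 0.0477). SARS2, not tested, had 4 counts in all in the MYDGF group, 8 with aristolochic acid alone and 17 in untreated cells. Its neighbour MRPS12, a mitochondrial ribosomal protein gene, had 61 counts over the 9 libraries.

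Some members overlap other genes, and reads from the shared stretch cannot be told apart because the labels and headers do not state whether counting used strand. YARS2 shares 18161 bases with DNM1L, which had 349% as many counts. DNM1L changed by -0.44 on the log2 scale with aristolochic acid (adjusted p = 0.00694). KARS1 shares 871 bases with TERF2IP, which had 49.8% as many counts and changed by 0.83. WARS2 overlaps WARS2-AS1 (293% as many counts), HARS1 overlaps WDR55 (74.3%) and AARS1 overlaps DDX19B (12.2%). These neighbours changed by 1.17, -0.31 and 0.93 with aristolochic acid. MARS1 shares 982 bases with DDIT3, which rose by 0.90 and had 6.85% as many counts, and YARS1 shares 1265 bases with S100PBP, which had 20.8% as many and was not called (log2 -0.41, adjusted p = 0.224). VARS1 and VARS2 lie in the major histocompatibility region, where the neighbouring genes TAP1 and PSMB8 had 0 and 2 counts over the 9 libraries. The part of these overlaps in the results was not tested.

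Summed CPM was higher for the cytosolic set and lower for the mitochondrial set in treated cells. The 21 cytosolic genes summed to 5219, 5251 and 5371 CPM in the MYDGF group, 4926, 5304 and 5137 CPM with aristolochic acid alone and 3420, 3439 and 3425 CPM in untreated cells. The 17 mitochondrial genes summed to 581.5, 602.6 and 607 CPM in the MYDGF group, 610.7, 622.7 and 608.8 CPM with aristolochic acid alone and 690.1, 667 and 676.5 CPM in untreated cells. In both sums every treated library lay on one side of every untreated library. The ratio of summed cytosolic to mitochondrial counts within a library, which needs no normalization between libraries, averaged 8.84 ± 0.13 in the MYDGF group, 8.34 ± 0.24 with aristolochic acid alone and 5.06 ± 0.10 in untreated cells (SD, n = 3 each). No test was made on these sums. Genes with more counts weigh more in these sums, TARS1 most in the cytosolic and IARS2 most in the mitochondrial sum. IARS2 averaged 240 CPM in the MYDGF group, 227 CPM with aristolochic acid alone and 295 CPM in untreated cells. The mitochondrial sum averaged 597, 614.1 and 677.9 CPM in the same order. With aristolochic acid alone the fall of IARS2 was as large as that of the sum. The sum therefore shows no joint fall of the other mitochondrial genes with the toxin alone.

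**Figure D3:**
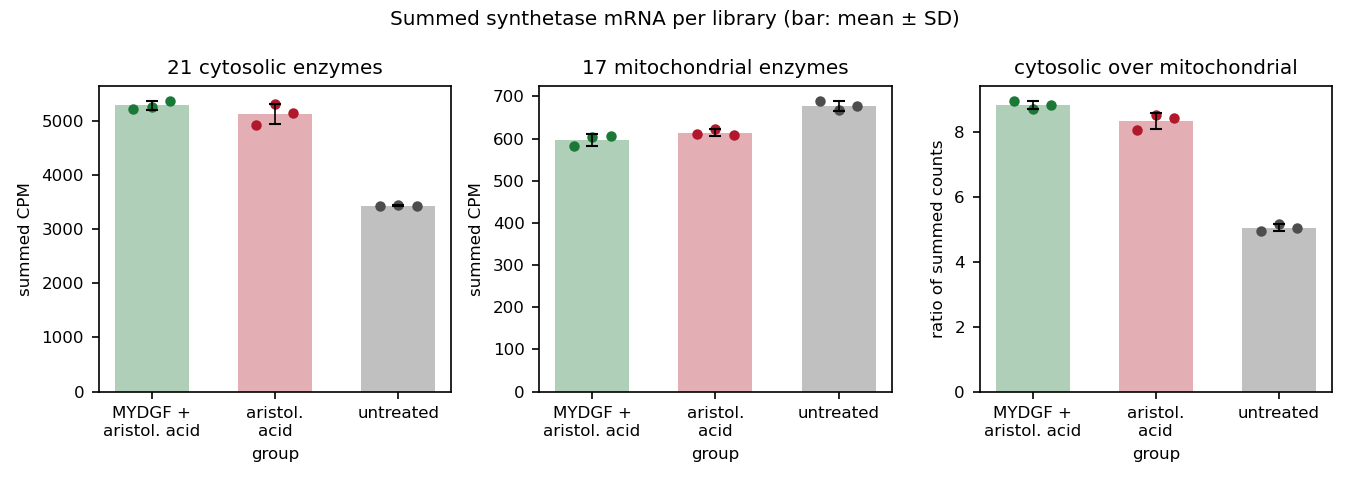
Summed CPM of the 21 cytosolic and the 17 mitochondrial synthetases and the ratio of their summed counts, for MYDGF with aristolochic acid (green), aristolochic acid alone (red) and untreated cells (grey). Points are libraries and bars are means with SD over 3 libraries. The ratio is 8.07 to 8.97 in the 6 treated libraries and 4.96 to 5.16 in the untreated ones.

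Enzyme by enzyme, the count of a cytosolic gene was divided by that of its mitochondrial counterpart in the same library, which gave 17 pairs with both genes tested. EPRS1 enters with EARS2 and with PARS2, and FARS2 with FARSA and with FARSB, so the pairs are not independent. With aristolochic acid alone, 9 pairs had ratios above all untreated libraries, 3 below and 5 overlapping, with a median log2 difference of 0.42. For single genes rather than ratios, CPM of the aristolochic acid libraries lay above every untreated library for 32.9% of all genes tested and below for 33%. YARS1 over YARS2 was 11.9, 12.6 and 13.5 with aristolochic acid alone, against 4.19, 4.6 and 4.41 in untreated cells. AARS1 over AARS2 was 17.1, 16.2 and 15.7 with aristolochic acid alone, against 5.8, 6.22 and 6.04 in untreated cells. In these pairs the cytosolic gene rose and the mitochondrial gene fell. The leucine, asparagine and arginine pairs had lower ratios than in untreated cells. LARS1 itself rose by 0.46 and LARS2 by 0.63 on the log2 scale. NARS1 had a log2 difference of 0.17 and was not called, and NARS2 rose by 0.60. RARS1 over RARS2 was 2.37, 2.48 and 2.77 with aristolochic acid alone, against 3.55, 3.26 and 3.73 in untreated cells. With 3 libraries against 3, an exact two-sided permutation test of a pair cannot go below 0.1.

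**Figure D4:**
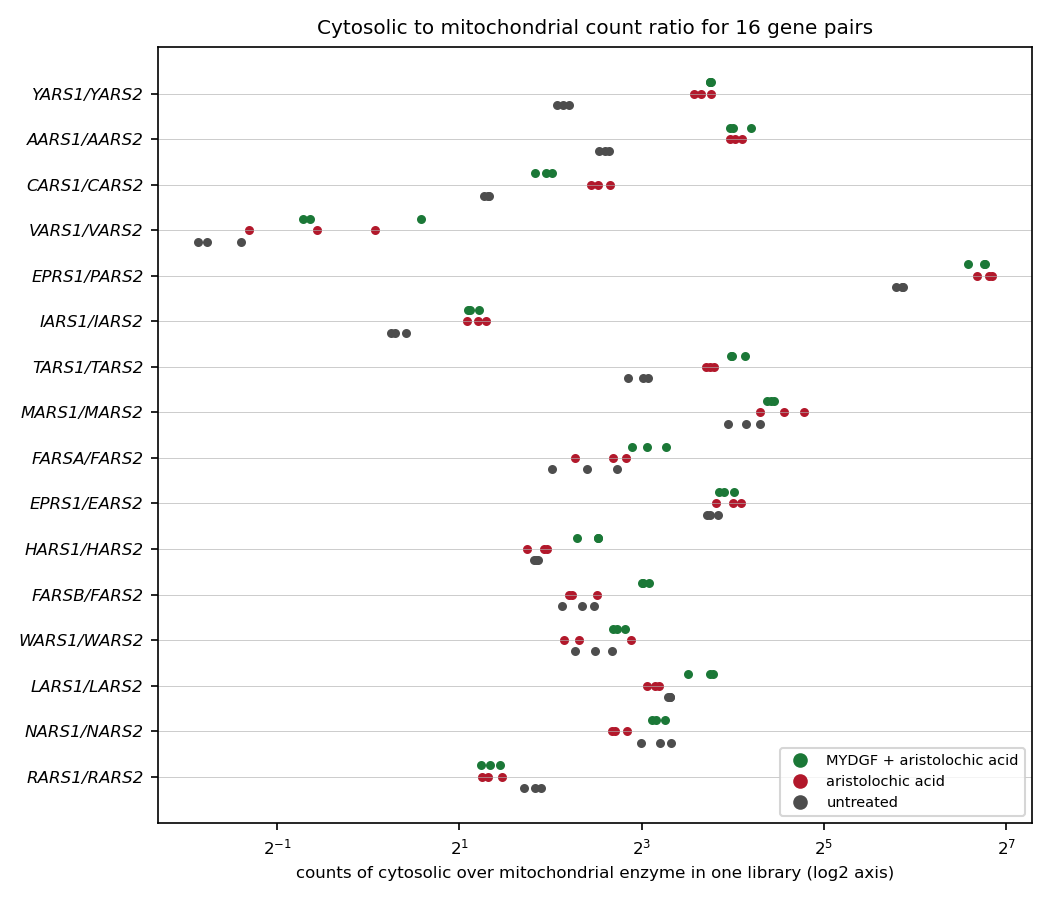
Ratio of cytosolic to mitochondrial counts within each library for 16 gene pairs, on a log2 axis, for MYDGF with aristolochic acid (green), aristolochic acid alone (red) and untreated cells (grey). Pairs are sorted by the difference between aristolochic acid and untreated cells. The tyrosine and alanine pairs show the widest gaps. The arginine, asparagine and leucine pairs have lower ratios with aristolochic acid alone than in untreated cells.

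MYDGF with aristolochic acid against aristolochic acid alone compares toxin-treated cells with and without the MYDGF virus. No group received this virus without the toxin. A changed response to the toxin and a difference present without it therefore cannot be told apart. Differences among synthetases were smaller here, and none reached 2-fold. Of 21 cytosolic mRNAs, the leucyl (LARS1), seryl (SARS1), tyrosyl (YARS1) and glutaminyl (QARS1) enzymes rose in the MYDGF group and 1 fell. Of 16 mitochondrial mRNAs, 2 rose, CARS2 among them, and HARS2, FARS2, TARS2, LARS2 and NARS2 fell. Over all genes tested 29.4% were called, 14.7% higher and 14.7% lower. The cytosolic shares were 19% higher and 4.76% lower, and the mitochondrial shares 12.5% higher and 31.2% lower. Median log2 fold changes were 0.11 over cytosolic, 0.06 over mitochondrial and 0.01 over all genes. The cytosolic count that rose was 2 without MYDGF 3 and 1 without MYDGF 4, the cytosolic count that fell was 2 without aristolochic acid 1, and the mitochondrial count that fell was 3 without MYDGF 3. The mitochondrial count that rose was 1 without MYDGF 3 or 4, aristolochic acid 4 or 6, or untreated 1 or 3.

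LARS1 (chr5:146110566-146182696) had 387, 409 and 436 CPM in the MYDGF group, 345, 359 and 342 CPM with aristolochic acid alone and 257, 252 and 252 CPM in untreated cells. MYDGF libraries stood above both other groups, 1.18-fold over aristolochic acid alone (log2 0.24 ± 0.06 SE, adjusted p = 0.0127). The call was lost without MYDGF 4 (adjusted p = 0.0524). SARS1 and YARS1, whose levels are given above, were 1.17-fold and 1.16-fold higher with MYDGF (adjusted p = 0.013 and 0.0188). SARS1 lost its call without aristolochic acid 6 (adjusted p = 0.0556) and YARS1 without MYDGF 3 or 4 (adjusted p = 0.0505 and 0.0643). QARS1, which had fallen with the toxin, was 1.23-fold higher with MYDGF (log2 0.30 ± 0.08 SE, adjusted p = 0.0251), and its call was lost without any MYDGF library or without aristolochic acid 4 (adjusted p = 0.0525 to 0.0854).

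TARS1 and CARS1, which had the largest rises with the toxin, were not called between the MYDGF group and aristolochic acid alone, at log2 -0.18 ± 0.08 (adjusted p = 0.098) and -0.10 ± 0.08 (adjusted p = 0.376). Without aristolochic acid 1, TARS1 was called lower (adjusted p = 0.0171) and NARS1 and VARS1 higher with MYDGF (adjusted p = 0.00836 and 0.0188).

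Among mitochondrial enzymes the largest difference was in HARS2 (chr5:140691430-140699305), the mitochondrial histidyl enzyme, whose variants cause a form of Perrault syndrome, as do those of LARS2. It had 16.1, 14.4 and 16 CPM in the MYDGF group, 26.2, 24.3 and 24.5 CPM with aristolochic acid alone and 26.4, 27.3 and 26.9 CPM in untreated cells. MYDGF libraries lay far below both other groups, at 0.621 times aristolochic acid alone (log2 -0.69 ± 0.09 SE, adjusted p = 0.00126). Its cytosolic neighbour HARS1 (chr5:140673035-140691537), with which it shares 108 bases, had 78.9, 83.2 and 92 CPM in the MYDGF group, 87.9, 93 and 95.4 CPM with aristolochic acid alone and 94.3, 99.9 and 94.8 CPM in untreated cells. HARS1 overlapped between the MYDGF and aristolochic acid groups (log2 -0.12 ± 0.07 SE, adjusted p = 0.247). ZMAT2, which shares 626 bases with HARS2 on the same strand, changed by -0.32 on the log2 scale with MYDGF (adjusted p = 0.00816).

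CARS2 (chr13:110641412-110713603) moved the other way. It had 22.5, 24.9 and 23.2 CPM in the MYDGF group, 15.8, 16.8 and 16.8 CPM with aristolochic acid alone and 17.7, 17.8 and 18.6 CPM in untreated cells. MYDGF libraries were above both other groups, 1.43-fold over aristolochic acid alone (log2 0.52 ± 0.09 SE, adjusted p = 0.00346). ING1, which shares 868 bases with CARS2 on the other strand, was not called (log2 0.04, adjusted p = 0.896). FARS2 and TARS2 fell to 0.68 and 0.721 times the aristolochic acid level with MYDGF (adjusted p = 0.0123 and 0.00838), and in both genes MYDGF libraries overlapped with untreated ones. LARS2 and NARS2 fell to 0.805 and 0.816 times that level (adjusted p = 0.0128 and 0.0448). LARS2 lost its call without MYDGF 3 (adjusted p = 0.0588). NARS2 lost it when any library but untreated 1 was left out (adjusted p up to 0.118). MARS2 and WARS2 were called, higher and lower with MYDGF, without aristolochic acid 1 (adjusted p = 0.0497 and 0.0315).

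The pair ratios between the MYDGF group and aristolochic acid alone did not overlap for 8 of 17 pairs, 6 higher with MYDGF and 2 lower. For single genes, CPM did not overlap for 22.5% of all genes tested above and 21.8% below. HARS1 over HARS2 was 4.9, 5.76 and 5.74 in the MYDGF group, against 3.35, 3.82 and 3.9 with aristolochic acid alone. LARS1 over LARS2 was 11.4, 13.4 and 13.8 in the MYDGF group, against 8.83, 9.1 and 8.32 with aristolochic acid alone. Both pairs of FARS2 and the asparagine and threonine pairs were also higher with MYDGF. CARS1 over CARS2 was lower with MYDGF, at 3.87, 3.56 and 4.04 in the MYDGF group, against 5.75, 6.27 and 5.45 with aristolochic acid alone.

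MYDGF with aristolochic acid against untreated cells shares its libraries with the comparisons above. Of the cytosolic mRNAs, 15 rose and QARS1 and RARS1 fell, beside 26.8% of all genes higher and 24.3% lower (51.1% called). CPM of the MYDGF libraries lay above every untreated library for 15 cytosolic and 5 mitochondrial genes tested, beside 32.8% of all genes, and below for 4 and 7, beside 31.1%. Of the mitochondrial mRNAs, CARS2, LARS2, MARS2, NARS2 and RARS2 rose and 6 fell, among them AARS2, HARS2, IARS2, PARS2 and YARS2. Median log2 fold changes were 0.70 over cytosolic, -0.16 over mitochondrial and 0.02 over all genes. YARS1, SARS1, VARS1, GARS1 and CARS1 passed 2-fold, at 2.36, 2.32, 2.12, 2.04 and 2.02. VARS1 had 4.21, 3.43 and 3.67 CPM in the MYDGF group, 3.16, 2.32 and 1.93 CPM with aristolochic acid alone and 2.06, 1.59 and 1.66 CPM in untreated cells (adjusted p = 0.00337 against untreated). The mean CPM was lowest in untreated cells, higher with aristolochic acid and highest with MYDGF in 11 of 21 cytosolic genes and 1 of 17 mitochondrial genes, MARS2. This order ranks group means whatever the size of the difference, and its share over all genes was not worked out. Only LARS1, SARS1 and YARS1 of these genes were called higher in both steps. Without untreated 2 or 3 the mitochondrial count that rose was 3, and without MYDGF 1, untreated 1 or untreated 3 the cytosolic count that fell was 1. RARS1 lost its call without MYDGF 1 or 4 or untreated 1 or 3 (adjusted p = 0.051 to 0.0912), and EPRS1 without untreated 1 (adjusted p = 0.072). NARS2 lost its call without MYDGF 3 or 4 or untreated 2 or 3 (adjusted p = 0.052 to 0.0862), and RARS2 without MYDGF 1 or any untreated library (adjusted p = 0.0645 to 0.104).

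Genes that act beside the synthetases moved unevenly. Human mitochondria have no known glutaminyl enzyme of their own and correct a misacylated tRNA with the GatCAB amidotransferase. Of its subunits, QRSL1 rose by 0.75 ± 0.09 with aristolochic acid, GATC fell by 0.57, and GATB had a log2 difference of 0.09 ± 0.11 (adjusted p = 0.473). MTFMT, which formylates the initiator methionyl-tRNA of mitochondria, fell by 0.59 with aristolochic acid and was 0.29 ± 0.09 higher with MYDGF (adjusted p = 0.0443). Of 10 mitochondrial translation factors, 6 rose and 2 fell with aristolochic acid, beside 29.7% of all genes higher and 29.3% lower. With MYDGF against aristolochic acid, 1 rose and 4 fell, beside 14.7% of all genes in each direction. Their median log2 fold change was 0.37 with aristolochic acid and -0.25 with MYDGF. The recycling factor MRRF, the release factor MTRF1L and the rescue factor MTRFR had the largest rises with the toxin, of 0.83, 0.69 and 0.63. The elongation factor TUFM averaged 185 ± 15.3 CPM in the MYDGF group, 146 ± 7.68 CPM with aristolochic acid alone and 196 ± 1.36 CPM in untreated cells, and was the 1 that rose with MYDGF.

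The next lists, compared for aristolochic acid against untreated cells, stand beside 29.7% of all genes higher, 29.3% lower and a median log2 fold change of -0.01. Of 10 cytosolic elongation and release factors, 5 rose and 2 fell (median 0.09). EEF1A2 fell by 0.89 on the log2 scale, EIF5A rose by 0.51 and EEF1D fell by 0.33. Of 26 genes for tRNA transcription, processing and export, 8 rose (30.8%) and 6 fell (23.1%), shares near those of all genes (median 0.16). POLR3G and POLR3C, subunits of RNA polymerase III, fell by 1.35 and rose by 1.31. Of 11 synthetase-related editing and tRNA-modifying genes, 3 rose (27.3%) and 2 fell (18.2%), no larger a share than over all genes in either direction (median 0.03). PUS1, a pseudouridine synthase, and YRDC, which acts in threonylcarbamoyl modification of tRNA, rose by 1.22 ± 0.09 and 1.19 ± 0.08, and the D-aminoacyl-tRNA deacylase gene DTD2 fell by 0.73.

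Of 12 genes for amino acid sensing and ATF4 regulation, 6 rose (50%) and 3 fell (25%) with aristolochic acid, beside 29.7% of all genes higher and 29.3% lower (median log2 0.19 over the list). ATF4 mRNA averaged 84.2 ± 3.32 CPM in the MYDGF group, 81.6 ± 3.97 CPM with aristolochic acid alone and 80.4 ± 6.86 CPM in untreated cells (SD, n = 3 each). It was not called in either comparison (log2 0.02 ± 0.08 with aristolochic acid, adjusted p = 0.831, and 0.04 ± 0.08 with MYDGF, adjusted p = 0.703), and protein was not measured. EIF2AK4, encoding GCN2, had a log2 difference of -0.16 ± 0.06 with aristolochic acid (adjusted p = 0.052). DDIT3, an ATF4-induced gene, rose by 0.90 ± 0.15 and the phosphatase subunit PPP1R15A by 1.83 ± 0.37, and CEBPB fell by 1.05. DDIT3, with 2508 counts in all, shares 982 bases with MARS1, which had 36610 counts and rose by 0.65. The part of this overlap in the DDIT3 rise was not tested. With MYDGF, PPP1R15A was lower than with aristolochic acid alone (log2 -1.33 ± 0.36, adjusted p = 0.0229).

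Other known ATF4 targets, 23 of 24 tested, gave 15 rises and 3 falls with aristolochic acid against untreated cells, with a median log2 fold change of 0.74, beside 29.7% of all genes higher and 29.3% lower. The largest were ATF3 at 3.13 ± 0.41, STC2 at 1.51 ± 0.04 and TRIB3 at 1.36 ± 0.09. Between MYDGF and aristolochic acid alone, 7 rose and 4 fell, beside 14.7% of all genes in each direction. TRIB3 was among the genes higher with MYDGF, at 333 ± 34.5 CPM in the MYDGF group, 192 ± 13.9 CPM with aristolochic acid alone and 74.5 ± 2.87 CPM in untreated cells. ATF3 was among those lower with MYDGF, at 43.6 ± 17.8 CPM in the MYDGF group, 123 ± 52 CPM with aristolochic acid alone and 14.1 ± 1.8 CPM in untreated cells. CARE letters were present in 6 of 19 of these targets with a promoter window, beside 7 of 16 cytosolic synthetases. Of the 11 cytosolic synthetases that rose with aristolochic acid and had a window, 6 held the letters. NARS1 held them and was not called, SARS1, FARSA, FARSB, EPRS1 and KARS1 rose without them in the window, and YARS2 held them and fell.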

How the data were processed

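The authors deposited 1 table with whole-number counts per gene, not normalized, for 9 libraries, and FPKM values made by the authors beside them, per the file headers. Only the counts were used. The submitters' processing notes list the tools HISAT2, SAMtools 1.3.1, CASAVA 1.8 and edgeR and the mouse build mm10, per the labels, although the table lists human genes. All 38 synthetases were found in GENCODE 29 at an overlapping GRCh38 position, so the table's positions are read as GRCh38. How reads were counted (tool, annotation, strand, reads with several matches) was not given in the sources used here. Pseudogene copies of synthetases held at most 17 counts.

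Counts were scaled with TMM in edgeR 4.0.16 (R 4.3.3), filtered with filterByExpr (minimum count 10, minimum total 15) and fitted as 1 factor with 3 groups over all 9 libraries (glmQLFit, glmQLFTest, 6 residual degrees of freedom, biological coefficient of variation 16.4%). Adjusted p-values are Benjamini-Hochberg values over 18267 genes, with 0.05 as the threshold, and "rose", "fell" and "called" refer to it. The steps were tested on simulated data. Library pairs within a group differed by more than sampling noise. Full values were given for members at 2-fold or more, for the largest riser and faller of each compartment in each main comparison and their counterparts, and in other lists for up to 3 genes with the largest called change; 3 genes that this rule names are not reported here, though they stay in the counts, medians and sums. Members and lists were chosen with earlier results of these data known. Alternatives were DESeq2 1.42.0, its size factors, no TMM, no filter, only the 6 libraries compared, replicate numbers as a block, and each library left out in turn. Promoter windows are from RefSeq.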

Additional observations from a re-analysis of the deposited data

How the results depend on the processing

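Of 1665 fold changes of synthetases (111 under each of 15 alternative settings), 1572 kept their side of the threshold, 81 lost a call and 12 gained one. No called fold change changed sign under these settings, and none was called in the opposite direction. Some that were not called did change sign, such as TARS3 (log2 -0.17 to 0.18) and WARS2 (-0.31 to 0.11) with aristolochic acid against untreated cells, FARSA (-0.15 to 0.10) with MYDGF against aristolochic acid, and VARS2 (-0.51 to 0.09) and FARS2 (-0.10 to 0.12) with MYDGF against untreated cells. Depth limits VARS1, PARS2 and VARS2, with 19 to 95 counts in a library, and SARS2. With 1 library left out in turn, aristolochic acid against untreated gave 12 to 15 cytosolic genes higher and 1 to 2 lower (median log2 0.46 to 0.6), 5 to 6 mitochondrial genes higher and 5 lower (median -0.11 to -0.05), and 9936 to 11347 genes called in all. MYDGF against aristolochic acid gave 1 to 6 cytosolic genes higher and 1 to 2 lower, 1 to 2 mitochondrial genes higher and 3 to 5 lower, and 3504 genes (without MYDGF 3) to 6614 genes called. MYDGF against untreated gave 14 to 15 cytosolic genes higher and 1 to 2 lower, 3 to 5 mitochondrial genes higher and 6 lower (median -0.19 to -0.06, -0.06 being the value without MYDGF 4 or untreated 1), and 7894 to 10031 genes called. Between MYDGF and aristolochic acid, the mitochondrial count higher was 1 with DESeq2 size factors, with DESeq2's Wald test, without the filter and with only the 6 libraries compared. Between MYDGF and untreated cells, it was 3 without the filter, and the mitochondrial median was -0.24 with DESeq2 and -0.26 without the filter, which adds SARS2. The cause was not tested.

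No label says that a number shared between groups marks a shared culture. Correlations of the deviations of same-numbered libraries ran from -0.14 to 0.02, and those of differently numbered libraries from -0.11 to 0.15. With so few libraries in a group, these correlations cannot decide whether libraries were paired. With the numbers as a replicate block, which leaves 2 residual degrees of freedom, aristolochic acid against untreated gave 5062 genes called and mitochondrial counts of 1 higher and 3 lower. MYDGF against aristolochic acid gave 14 genes called and a count of 0 for cytosolic and mitochondrial genes in both directions. MYDGF against untreated gave 5446 genes called, 1 cytosolic gene lower, and 0 mitochondrial genes higher and 3 lower with a median of -0.23.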
